A study of Rattus norvegicus with 6 samples.

Results

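Peroxiredoxins, thioredoxins and their close partners were measured in lung RNA of 6 Lewis rats, an inbred strain, on short-oligonucleotide arrays with 1 array per animal. The genes were the peroxiredoxins Prdx1 to Prdx6, the thioredoxins Txn1 and Txn2, the thioredoxin-binding gene Txnip and the glutaredoxin gene Glrx. Every probe set annotated to 1 of these genes and to no other was taken, which gave 10 of 31042 probe sets for 9 of the 10 genes, out of 14217 named genes. Prdx1 has no value here because its listed probe set is shared with Prdx1l1. Glrx had 2 probe sets and each other gene 1, and where a gene is given by a single value it is that of its brightest probe set.

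The silica group held 3 rats exposed for 6 weeks, on 5 days of each week and for 6 hours of each day, to inhaled silica dust (Min-U-Sil 5) at 6.2 mg/m3. The 3 control rats breathed filtered air in the same kind of chamber. No age, sex or interval between exposure and tissue collection is given in the sources used here, and nothing says whether the animals were housed or processed apart. The comparison asks whether genes handling peroxide and protein thiols, a part of the redox genes the study names as its subject, differ between exposed and unexposed lungs.

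Peroxiredoxins are enzymes that reduce hydrogen peroxide and lipid peroxides through a reactive cysteine. Most of them are returned to the reduced state by thioredoxin, a small protein with a pair of active-site cysteines, which is itself reduced by thioredoxin reductase with NADPH. Glutaredoxin does a related job with glutathione and removes glutathione from protein cysteines, while Txnip binds thioredoxin and inhibits it. In lung, Prdx6 is abundant in alveolar type 2 and airway epithelium, where its phospholipase activity also takes part in surfactant lipid turnover.

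None of the 9 measured genes passed an adjusted p of 0.05 (limma, adjusted over all probe sets), where 1.67% of all 14217 genes and 1.08% of all probe sets did. At an unadjusted p under 0.05 3 genes were higher in silica (Glrx, Prdx5 and Txn2), where 12.6% of all genes were, and 1 was lower (Prdx6), where 7.27% of all genes were. These shares are not matched to the members in brightness. With the dimmer 50% of probe sets left out, 2348 of 15521 probe sets were higher at that level (limma) and 2313 lower. Over all 31042 probe sets 2903 were higher and 2466 lower. Of the 9 genes, 3 were higher and 2 lower with the dimmer 50% left out. The silica arrays lay wholly above the control arrays for Prdx5, Txn2 and Glrx and wholly below them for Prdx6 and Txnip. Of all genes, 18.7% were separated upward in this way, beside 3 of the 9, and 12.7% downward, beside 2 of the 9. The members' median log2 fold change was -0.05, against 0.02 over all genes, and the single values ran from -0.38 to 0.77. An exact two-sided permutation test of each mean log2 value gave p = 0.1 for these 5 separated genes, the smallest that 3 against 3 animals can give.

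**Figure D1:**
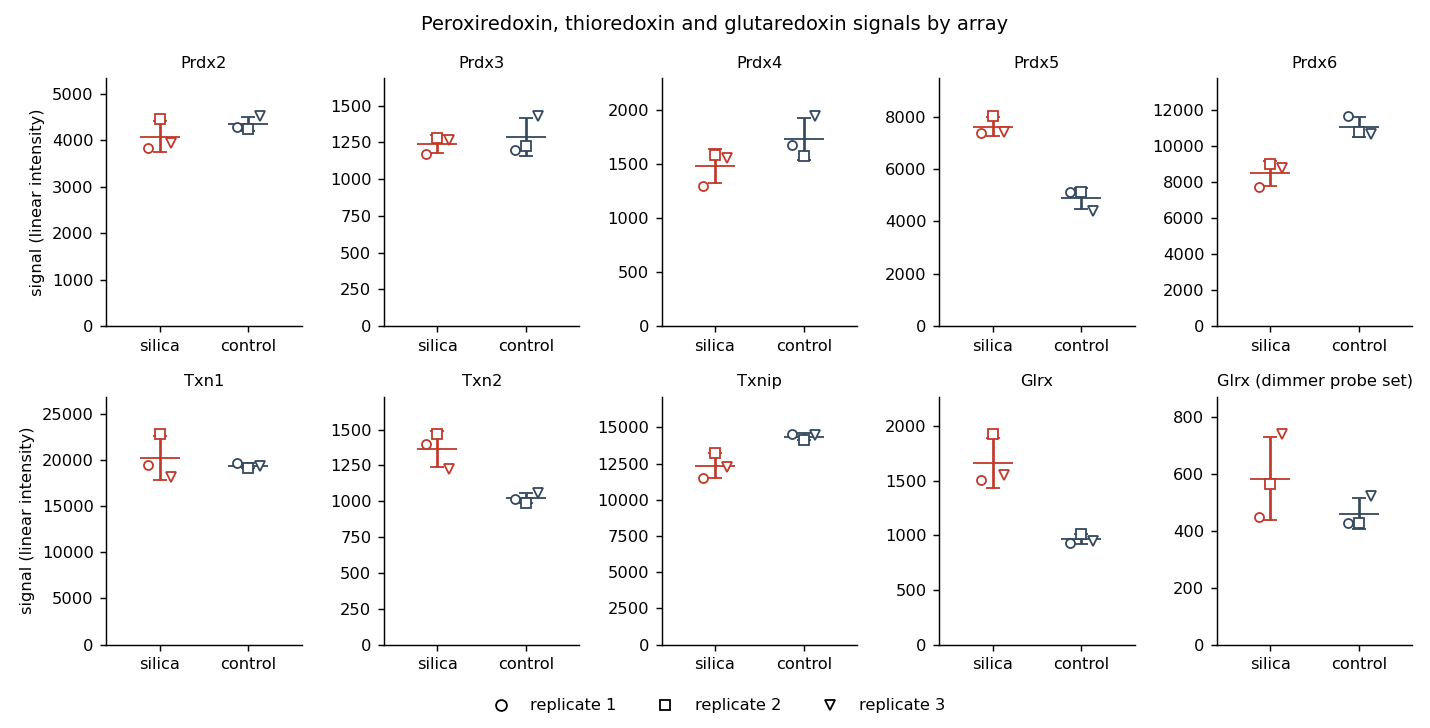
Signal (linear intensity, axes from 0) on each array for the 10 probe sets, with silica left of control, symbols for the replicate number, and a bar with whiskers for the group mean and SD (n = 3). The silica points lie clear of the control points for Prdx5, Txn2 and the brighter Glrx probe set, which are higher in silica, and for Prdx6 and Txnip, which are lower.

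Of the peroxiredoxins, Prdx5 had the largest difference. Prdx5 encodes an enzyme found in mitochondria, peroxisomes and cytosol that also reduces peroxynitrite. Its signal was 7400, 8053 and 7434 on the silica arrays, against 5113, 5132 and 4415 on the control arrays. The lowest silica array thus stood well above the highest control array. The difference was 1.56-fold (log2 fold change 0.64 ± 0.11 SE, 95% interval 0.38 to 0.91, adjusted p = 0.0634).

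Prdx6, the family's 1-Cys member, went the other way. It had 7715, 9032 and 8784 on the silica arrays and 11715, 10825 and 10677 on the control arrays, so all silica arrays were lower. Its fold was 0.768 (log2 fold change -0.38 ± 0.11, 95% interval -0.64 to -0.12, adjusted p = 0.168). Prdx5 and Prdx6 therefore had 95% intervals that did not meet, one wholly above 0 and the other wholly below it. The difference between these genes was not itself tested.

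The remaining peroxiredoxins showed overlapping groups. Prdx2, the abundant cytosolic peroxiredoxin of red blood cells that is also made in other cells, had 3839, 4466 and 3940 in silica and 4295, 4239 and 4536 in control. The highest silica array of Prdx2 reached into the control range, and the 95% interval of its fold was 0.785 to 1.11 (adjusted p = 0.681). Prdx3, the mitochondrial peroxiredoxin, had 1168, 1280 and 1264 in silica and 1195, 1228 and 1432 in control. Its interval, 0.799 to 1.17 as a fold, was centred close to no difference (adjusted p = 0.856). Prdx4, the secretory-pathway member that feeds oxidising equivalents to protein disulfide isomerases, had 1298, 1583 and 1558 in silica and 1678, 1572 and 1950 in control. For Prdx4 the estimate leaned lower, at a log2 fold change of -0.23 ± 0.13, with an interval of 0.681 to 1.07 as a fold and an adjusted p of 0.443. Its estimate was smaller without silica replicate 1 (-0.14), without control replicate 3 (-0.14) and with a covariate for RNA quality (-0.06).

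Of the thioredoxins, the mitochondrial one and the cytosolic one gave unlike estimates. Txn2, the mitochondrial thioredoxin that serves Prdx3 and Prdx5, had 1399, 1469 and 1228 in silica and 1013, 990.4 and 1059 in control. The groups were apart, with every silica array higher, by 1.33-fold (log2 fold change 0.41 ± 0.11, 95% interval 0.15 to 0.67, adjusted p = 0.149). Txn1, the cytosolic thioredoxin, had 19533, 22838 and 18202 in silica and 19734, 19173 and 19370 in control. The control arrays of Txn1 were close together and lay inside the silica range, with a log2 fold change of 0.05 ± 0.12 and an adjusted p of 0.865. The difference between Txn2 and Txn1 was not tested.

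Txnip, an arrestin-like protein that inhibits thioredoxin and lowers glucose uptake, was bright on every array. It had 11508, 13252 and 12292 in silica and 14537, 14117 and 14442 in control. Every silica array was lower, but the difference was modest (0.859-fold, 95% interval 0.727 to 1.01, adjusted p = 0.323).

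Glrx, the cytosolic glutaredoxin that reverses protein glutathionylation, had the largest estimate and the smallest p of the members. Its brighter probe set had 1511, 1930 and 1556 in silica and 932.8, 1015 and 953.8 in control. The groups were apart, by 1.70-fold (log2 fold change 0.77 ± 0.13, 95% interval 0.46 to 1.07, adjusted p = 0.0606). The dimmer Glrx probe set had 447.4, 561.8 and 738.6 in silica and 427.4, 428.2 and 521.1 in control. Here the groups overlapped, since silica replicate 1 lay below control replicate 3, and the log2 fold change was 0.31 ± 0.20 (adjusted p = 0.475). Both Glrx probe sets had estimates above 0 but differed in size, and averaging them gave 0.54 (adjusted p = 0.121).

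Genes with a profile like that of Glrx were sought among 10163 other genes with a mean log2 value of at least 7, by the root mean square difference of centred log2 values over the 6 arrays. The nearest were the purinergic receptor gene P2ry14 (0.045), the small GTPase gene Rhof (0.046) and the kinase gene Stk10 (0.048). P2ry14 had signals of 803 ± 105 in silica and 461 ± 31.5 in control (SD, n = 3 each), with a log2 fold change of 0.77. Rhof had 269 ± 43.5 in silica and 158 ± 5.37 in control, and Stk10 had 2162 ± 360 in silica and 1322 ± 73.7 in control. Their log2 fold changes were 0.70 and 0.69, and none of these genes passed the threshold (adjusted p 0.0606, 0.0814 and 0.0955 in the order named).

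**Figure D2:**
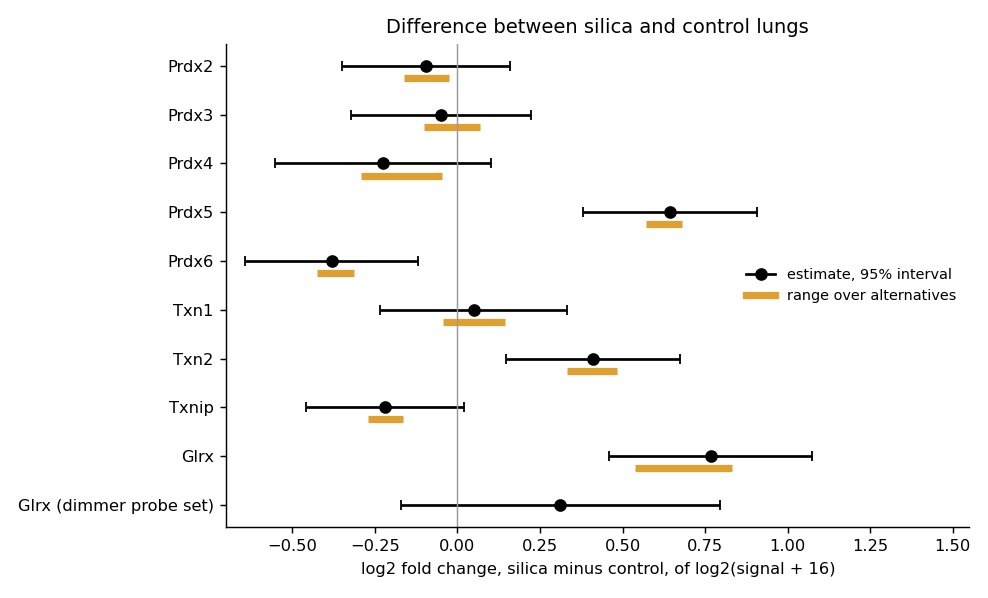
Log2 fold change (silica minus control) of each probe set with its 95% interval (black), and the range of the estimate over the 17 alternative settings for the brightest probe sets (orange). The intervals of Glrx, Prdx5 and Txn2 lie above 0 and that of Prdx6 below 0. The orange bars of these 4 genes stay on the same side of 0, as do those of Prdx2, Prdx4 and Txnip.

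The promoters of Glrx and Prdx5, the members with the largest estimates, and of Srxn1, the partner gene that passed the threshold, are given to show which transcription factor motifs these letters hold. Each window is 250 bases before to 50 bases after the start listed by RefSeq, on assembly GRCr8, which 8 of the 10 genes matched. Capitals mark matches on either strand to the antioxidant response element core TGACNNNGC, which Nrf2 binds with small Maf proteins, or to the AP-1 element TGAGTCA, a motif added after the sequences were seen. The 2 motifs can overlap.
Prdx5, chr1:213531978-213532277, minus strand: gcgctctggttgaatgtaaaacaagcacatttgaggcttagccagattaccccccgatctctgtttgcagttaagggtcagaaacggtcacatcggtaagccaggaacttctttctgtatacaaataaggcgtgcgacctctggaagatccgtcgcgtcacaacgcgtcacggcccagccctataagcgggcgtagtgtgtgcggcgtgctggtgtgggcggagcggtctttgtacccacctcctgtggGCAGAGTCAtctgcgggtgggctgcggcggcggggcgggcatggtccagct
Glrx, chr2:7073545-7073844, plus strand: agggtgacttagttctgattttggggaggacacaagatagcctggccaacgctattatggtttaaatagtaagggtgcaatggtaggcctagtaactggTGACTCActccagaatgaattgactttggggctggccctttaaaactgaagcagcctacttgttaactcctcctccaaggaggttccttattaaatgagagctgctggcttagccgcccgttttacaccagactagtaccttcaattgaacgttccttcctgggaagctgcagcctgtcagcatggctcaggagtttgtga
Srxn1, chr3:161064562-161064861, plus strand: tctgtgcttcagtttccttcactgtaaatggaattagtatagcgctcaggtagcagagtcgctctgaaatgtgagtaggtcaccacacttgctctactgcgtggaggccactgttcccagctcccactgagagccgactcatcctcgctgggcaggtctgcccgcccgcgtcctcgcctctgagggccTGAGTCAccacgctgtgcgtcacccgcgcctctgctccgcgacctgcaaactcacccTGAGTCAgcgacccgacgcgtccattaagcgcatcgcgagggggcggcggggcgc

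The Prdx5 window holds 1 antioxidant response element core, printed as GCAGAGTCA on the gene's strand and starting at the base before the start site, and no AP-1 element. The Glrx window holds 1 AP-1 element, 151 bases before the start site when read on the opposite strand, and no antioxidant response element core. The Srxn1 window holds 2 AP-1 elements, 62 and 5 bases before the start site, and no match to TGACNNNGC within these 300 bases. The AP-1 element nearer the start site continues as TGAGTCAgc, which differs from that core only in having G for C after TGA. Other forms of the antioxidant response element were not searched for, so their absence from any window is not shown. Of 33469 rat promoter windows of this length, 12.1% hold the antioxidant response element core and 4.63% the AP-1 element. Of the other windows, that of Prdx1 holds 1 antioxidant response element core and 2 AP-1 elements, of which 1 lies inside the core, that of Prdx4 holds 1 core, and those of Prdx2, Prdx3, Txn1 and Txn2 hold neither. The E-box CACGTG was found in the Prdx4 window alone among the 8, and in 6.42% of all windows. The arrays give RNA levels and no binding, so these matches are a description of sequence.

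The arrays within the silica group differed in a way shared by these genes and by some others. Silica replicate 2 had the highest of the silica values for all 9 genes by their brightest probe sets, between 0.05 and 0.22 above its group's mean on the log2 scale. Among 4390 probe sets at least as bright as the dimmest member, silica replicate 2 was the highest silica array in 38.6%. Partner genes are given only as examples, without a count over all 52. Silica replicate 2 was also the highest silica array for Srxn1, Qsox1, P4hb and Erp29, but not for Txnrd1, Txnl1 or Nxn. The same held for the surfactant genes Sftpc, Sftpb, Sftpa1 and Sftpd, where silica replicate 2 was again the highest. Silica replicate 1 was the lowest in 7 of the 9 genes, against 30.3% of those probe sets. In control no array held the highest value in more than 4 of the 9. Without silica replicate 2 the log2 fold changes were 0.66 for Glrx, 0.60 for Prdx5 and 0.36 for Txn2, and -0.43 for Prdx6, so each kept its sign. Txn1 changed sign there, at -0.043.

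**Figure D3:**
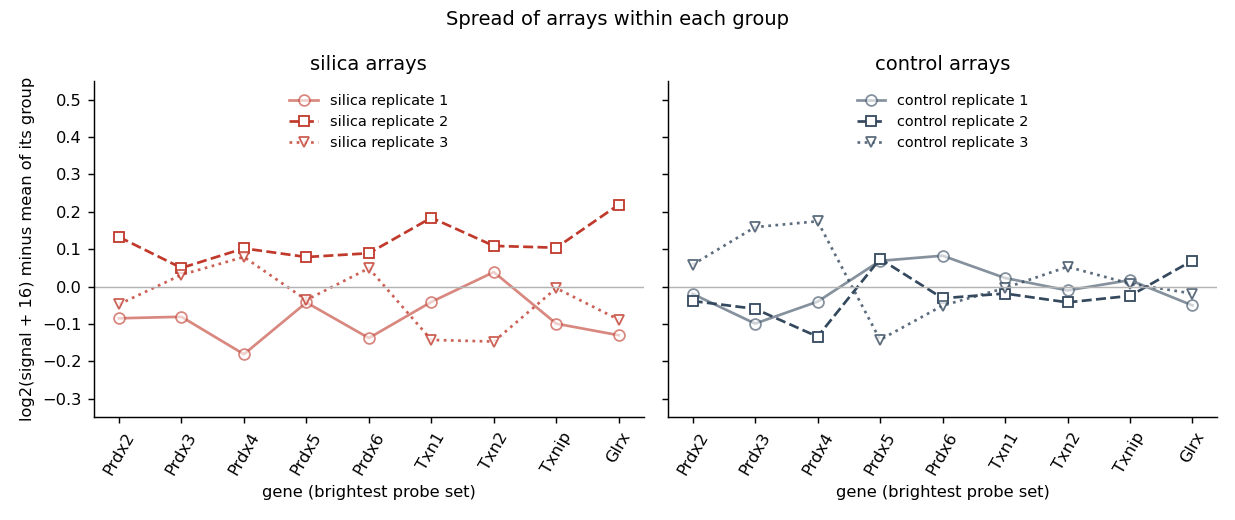
Log2(signal + 16) of each array minus the mean of its own group for the 9 genes, with the silica arrays left and the control arrays right. The dashed line of silica replicate 2 lies above the other silica arrays at every gene, from 0.05 to 0.22, while the control lines cross.

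The calls on these genes differed between settings. With the dimmer 50% of probe sets left out, Glrx, Prdx5 and Txn2 passed as higher and Prdx6 as lower, with 10.8% of the probe sets kept passing. The same 4 genes passed with an intensity trend and robust spread, where 6.00% of probe sets did, and Glrx and Prdx5 passed with a pseudocount of 64, where 2.96% did. All 10 member probe sets were among the 50% kept. With RNA quality as a covariate none of the 9 passed. The log2 fold changes were then 0.75 for Glrx and 0.58 for Prdx5, with adjusted p of 0.324 and 0.332. For Txn2 and Prdx6 they were 0.33 and -0.33, with adjusted p of 0.521 and 0.530. Neither Txn2 nor Prdx6 then kept an unadjusted p under 0.05 (limma, 0.0660 and 0.0737). That covariate is the mean log2 ratio of 3-prime to 5-prime signal of beta-actin and GAPDH. It was 1.67, 1.49 and 1.15 on the silica arrays and 1.23, 1.20 and 0.993 on the control arrays, with 1 silica array inside the control range.

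**Figure D4:**
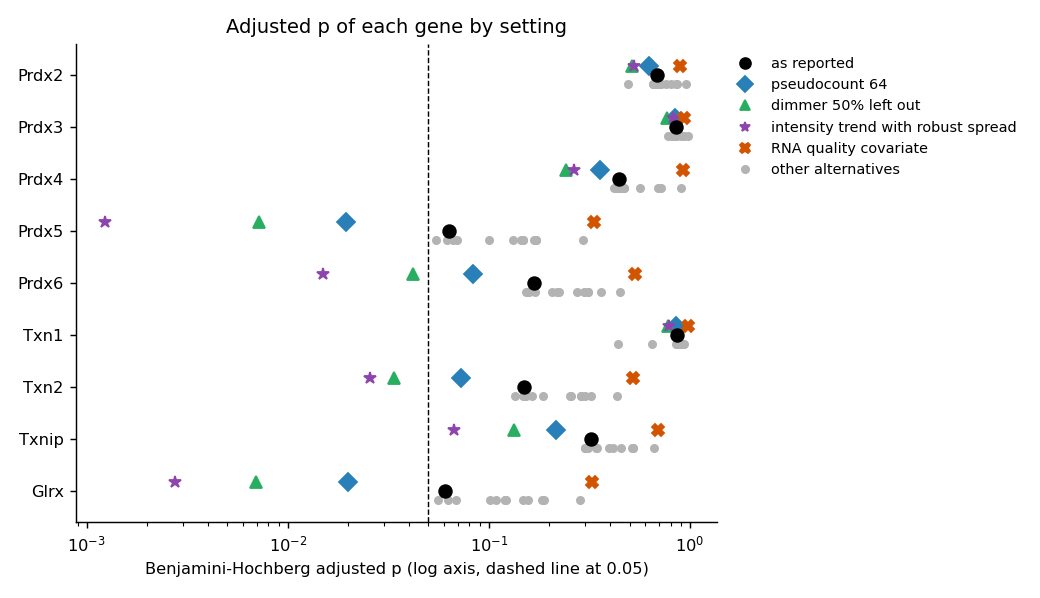
Adjusted p (log axis) of each gene under the fit as reported (black) and under the alternatives, with the dashed line at 0.05. Prdx5 and Glrx fall below the line under 3 settings, Txn2 and Prdx6 under 2, and Prdx2, Prdx3, Prdx4, Txn1 and Txnip under none.

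Of 52 measured partner genes, 1 rose and none fell at an adjusted p under 0.05, a share close to that of all genes. Their median log2 fold change was 0.13, with 38 estimates above 0 and 14 below, or 73.1% above 0 beside 53.7% of all genes. At an unadjusted p under 0.05 (limma) 5 of the 52 were higher and 2 lower. Both are smaller shares than the 12.6% and 7.27% of all genes. The gene past the adjusted threshold was Srxn1, sulfiredoxin, which repairs peroxiredoxins whose cysteine has been overoxidised to sulfinic acid. It had 466.5, 518.6 and 451.4 in silica and 167.3, 201.7 and 147 in control, so that even the lowest silica array exceeded every control array by a wide margin (2.65-fold, log2 fold change 1.40 ± 0.14, adjusted p = 0.0267). Its 2 further probe sets were dim and gave 0.58 and -0.06, and the average of all 3 did not pass (adjusted p = 0.103), whereas the average for Qsox1, a sulfhydryl oxidase gene, did (adjusted p = 0.0393). Srxn1 also missed the threshold in each fit without 1 array (adjusted p 0.0834 to 0.114), with log2 fold changes of 1.31 to 1.51, and with a pseudocount of 1, the replicate block or the RNA quality covariate, and its adjusted p ran from 0.000543 to 0.232 over all alternatives.

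The other recycling enzymes did not pass. Gsr, glutathione reductase, was dim, with 55.5, 67 and 73 in silica and 12.5, 42.3 and 51.2 in control (log2 fold change 0.75 ± 0.33, adjusted p = 0.314). The Gsr estimate rested in part on control replicate 1, at 12.5, and was 0.37 without it. It was 1.07 with a pseudocount of 1 and 0.40 with a pseudocount of 64. Txnrd1, the cytosolic thioredoxin reductase and a known Nrf2 target, had 0.25 ± 0.13 (adjusted p = 0.374). Txnrd2, its mitochondrial counterpart, had 0.23 and Txnrd3 0.30, neither past the threshold. All 5 recycling enzymes had estimates above 0, beside 53.7% of all genes, with a median of 0.30.

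Among 9 genes listed for disulfide formation and folding in the secretory pathway, 8 estimates lay above 0, beside 53.7% of all genes. Their median was 0.21, and none passed. Qsox1, which is secreted, had 518.8, 596.8 and 537.8 in silica and 363.2, 269.5 and 362.5 in control. Its groups were apart and its log2 fold change was 0.72 ± 0.15 (adjusted p = 0.0955), while its second probe set gave 0.66 (adjusted p = 0.0885). Erp29, a lumenal chaperone, had 0.25 and P4hb, the main protein disulfide isomerase, 0.23. Neither passed, and both had every silica array above every control array.

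None of 18 other thioredoxin-fold and glutaredoxin genes passed or reached an unadjusted p under 0.05, with estimates between -0.16 and 0.27. The ones with the smallest p were Txndc11 (0.27), nucleoredoxin (Nxn, 0.21) and Txnl1 (0.17). The mitochondrial glutaredoxins Glrx2 and Glrx5 had 0.0041 and -0.0014 in their brightest probe sets, beside the 0.77 of Glrx.

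Of 5 thioredoxin-dependent reductases none passed. Rrm1, the large subunit of ribonucleotide reductase, had 0.42 ± 0.15 (adjusted p = 0.223), and the methionine sulfoxide reductases Msrb1 and Msrb3 had 0.28 and -0.21. Of 7 arrestin-domain genes and regulators of Txnip none passed either. Arrdc2 had 0.36 ± 0.11 (adjusted p = 0.178) and Arrdc3 had -0.17. Mlxipl, the glucose-responsive activator of Txnip, had 0.39 (adjusted p = 0.310). It was dim, at a mean of 64.4 in silica and 45.2 in control, and its groups overlapped. Its estimate was 0.49 with a pseudocount of 1 and 0.23 with 64. Arrdc4, a glucose-responsive relative of Txnip, had -0.12 (adjusted p = 0.639), beside -0.22 for Txnip.

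Among 8 signalling and repair partners none passed. Gstp1, the glutathione transferase that reactivates Prdx6, had 5066, 5094 and 5321 in silica and 6526, 6304 and 6341 in control. All its silica arrays were lower (log2 fold change -0.31 ± 0.09, adjusted p = 0.173), as they were for Prdx6. Sesn1, a sestrin, had -0.25 (adjusted p = 0.264). Keap1, the inhibitor of Nrf2, had 0.22 and Nfe2l2, which encodes Nrf2, had 0.12 (adjusted p = 0.292 and 0.546).

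**Figure D5:**
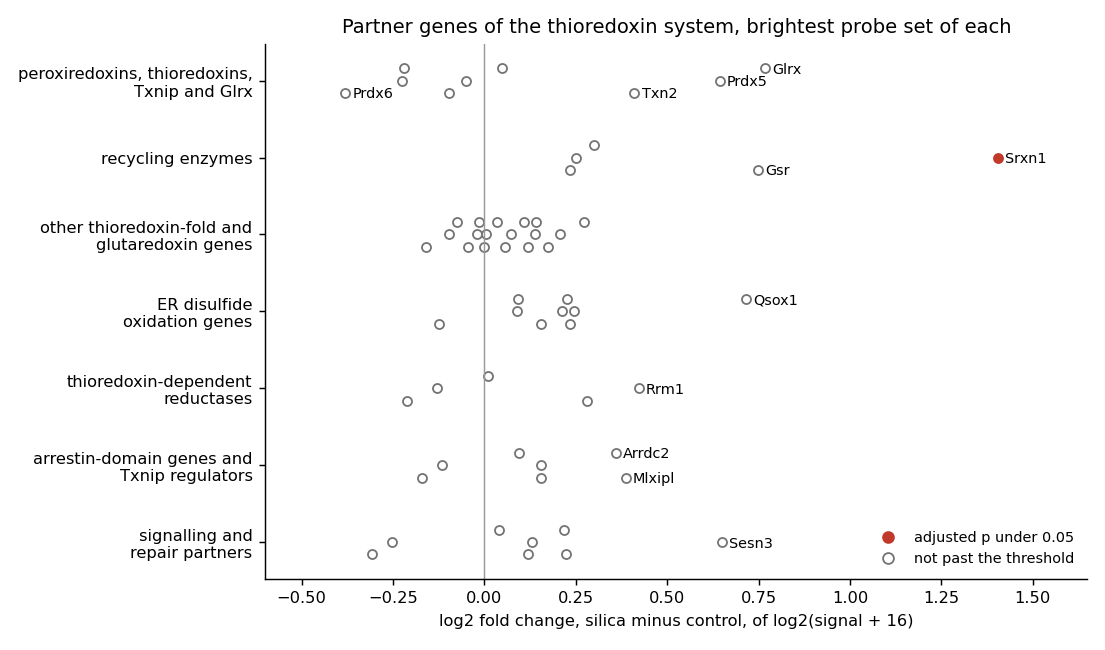
Log2 fold change (silica minus control) of the brightest probe set of each member and partner gene, by list, with red for an adjusted p under 0.05 and names for genes past 0.35 in either direction. Srxn1 at 1.40 is the only red point, and Glrx at 0.77 and Prdx5 at 0.64 are the highest of the top row.

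In tissue RNA, fewer cells of a type and less RNA per cell cannot be told apart. Lung epithelial markers were present on all arrays, with a summed signal of 123081 to 145779 in silica and 139268 to 146531 in control. Of these 10 genes 7 estimates lay below 0 and 3 above, the median was -0.13 and none passed. Sftpb (-0.18), Ager (-0.24), Aqp5 (-0.34) and Cdh1 (-0.35) had every silica array below every control array, as 12.7% of all genes did. None of the 10 lay wholly above. At an unadjusted p under 0.05 (limma) 3 of the 10 were lower and none higher, where 7.27% of all genes were lower. This stands beside the lower Prdx6, and its part there was not tested. The lowest epithelial marker by signal, Foxj1, averaged 305 in silica and 251 in control. The macrophage and monocyte list summed to 29250 to 36798 in silica and 29902 to 31054 in control. Lyz2, at a mean signal of 18910 and a log2 fold change of -0.21, weighed most in that sum. Of its 8 measured genes 1 passed as higher (Cd68, 0.88), with 5 estimates above 0 and 3 below. Cd68, Cd14 (0.82) and Adgre1 (0.62) had every silica array above every control array, as 18.7% of all genes did. The lowest, Cd163, averaged 48.7 in silica and 73.9 in control. The neutrophil list summed to 9822 to 17407 in silica and 5767 to 7590 in control, with 1 of 6 higher. T and NK cell markers summed to 5370 to 5834 in silica and 2639 to 2806 in control, and 5 of 8 rose. B and plasma cell markers summed to 3615 to 5296 in silica and 2526 to 3342 in control, with none of 4 past the threshold. Proliferation genes summed to 1609 to 1877 in silica and 615 to 714 in control, and 3 of 6 rose. These lists stand beside the higher Prdx5, Txn2 and Glrx, and their part in those differences was not tested.

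Red blood cell genes, of which 6 were measured, summed to 23453 to 27439 in silica and 28732 to 33276 in control, with none past the threshold and every estimate below 0. Their lowest, Epb42, averaged 14.4 in silica and 44.0 in control. This stands beside Prdx2, whose estimate was -0.10, and its part there was not tested. Endothelial markers summed to 26373 to 30729 in silica and 30756 to 32642 in control, and fibroblast and smooth muscle markers to 8110 to 9123 in silica and 8782 to 12180 in control, with none of 5 and none of 6 past the threshold. Cardiac muscle markers varied widely between arrays, at 675 to 2433 in silica and 220 to 3354 in control, and none of 5 passed. The muscle around pulmonary veins makes such RNA, but the source of these signals was not tested.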

How the data were processed

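RNA from lung tissue of 6 rats was labelled as biotin-tagged cRNA and hybridised to 1-colour arrays, per the labels' protocols. The deposited table gives 1 linear signal intensity for each probe set on each array. For the software that summarised the probes and its scaling, the sources used here state nothing. Trimming 2% of probe sets at each end left a mean of 500.0 on all arrays, so each deposited array carries a scaling factor of its own. Array medians lay between 7.38 and 7.42 on the log2 scale, and no further normalization was applied. Precision is limited by the number of arrays.

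Of 31099 probe sets, 57 array controls were left out. Genes were named from the platform annotation, with symbols updated by gene identifier (20758 of 20826 single-gene probe sets matched). The 436 probe sets with several genes gave no name and 9780 were unlisted. A gene's brightest probe set is that with the highest mean signal over all arrays. Silica was compared with control on log2(signal + 16) with limma 3.58.1 in R 4.3.3, with Benjamini-Hochberg adjustment over 31042 probe sets. Fold changes on this scale understate changes of dim genes. The fit was tested on simulated data. The labels describe the samples as separate animals.

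The members, partner lists, markers and alternatives were chosen with earlier results of these data known. Text names every member, up to 3 partners with the smallest p in each list, all partners past the threshold, and the 3 genes nearest in profile to the member with the smallest p. Txnrd1, Txnrd2, Glrx2, Glrx5, Arrdc4, Nfe2l2, the surfactant genes, Ager, Aqp5, Cdh1, Lyz2, Cd68, Cd14 and Adgre1 were named after their values were seen. Alternatives were other normalizations, pseudocounts of 1 and 64, leaving out dim probe sets, other models of the spread, a replicate block, an RNA quality covariate, fits without 1 or 2 arrays, other thresholds and averaging a gene's probe sets.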

Additional observations from a re-analysis of the deposited data

How the results depend on the processing

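As reported, 0 members, 0 member probe sets, 1 partner gene and 335 probe sets in all passed the threshold. Members numbered 2 with a pseudocount of 64, 4 with the dimmer 50% left out, 4 with an intensity trend and robust spread, and 2 at an adjusted p under 0.1; the member probe sets gave the same counts. Partner genes numbered 2, 4, 3 and 2 in these settings, and 0 with a pseudocount of 1, the RNA quality covariate, an adjusted p under 0.01, or control replicate 3 and silica replicate 1 both left out. All probe sets numbered 43 with a pseudocount of 1, 919 with 64, 1675 with the dimmer 50% left out, 1862 with the trend, 0 with the RNA quality covariate, 0 with control replicate 3 and silica replicate 1 both left out, 6 at 0.01 and 920 at 0.1. Leaving out each array in turn gave 0 members, 0 member probe sets and 0 partner genes in every fit (limma). All probe sets numbered 0 to 12 in these fits. At an unadjusted p under 0.05 these fits gave 4 or 5 of 9 members and 4 to 8 of 52 partners. Of all 31042 probe sets, 4024 to 5427 reached that level. The RNA quality covariate left 2 members, 4 partners and 3182 probe sets in all at that level. Quantile normalization and median centring kept 0 members and 1 partner past the threshold. Each set 6 of 10 member probe sets apart instead of 5. As reported, 25.6% of all probe sets were apart, and that share under these settings is not given here.

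The replicate numbers did not meet the rule for pairing: same-numbered arrays correlated at 0.092, 0.035 and 0.088 in their deviations from the group means, although each silica array correlated best with its own number. With the replicate block 0 members, 0 member probe sets, 0 partner genes and 1 probe set in all passed.

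Of 153 member values under alternatives, 138 kept their sign and side of the threshold, 10 passed it and 5 changed sign. The sign changed for Prdx3 with the RNA quality covariate (0.053), without control replicate 3 (0.029) and without control replicate 3 and silica replicate 1 (0.070), and for Txn1 with the covariate (-0.025) and without silica replicate 2 (-0.043). Among the named partners Keap1 changed sign with the mean of all its probe sets (-0.047). Without 1 array Prdx2 ranged from -0.163 to -0.054, Prdx3 from -0.100 to 0.029, Prdx4 from -0.293 to -0.135 and Txn1 from -0.043 to 0.121. With dim probe sets left out, fewer probe sets were tested and the unadjusted p was lower too (Prdx5 0.000141, against 0.000911 as reported); the cause of these changes was not tested. With 3 animals a group, the intervals of Prdx2, Prdx3, Prdx4, Txn1 and Txnip leave room for modest differences.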

Other observations

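Of the measured partner genes, 19 had dimmer probe sets, 23 in all, and none of these passed the threshold. Their estimates lay above 0 in 12 and below 0 in 11, and were higher than that of the gene's brightest probe set in 7 and lower in 16. The silica arrays lay wholly above the control arrays in 2 of the 23 and wholly below them in 3, or 5 in either direction, where 25.6% of all probe sets were apart. These 5 are named after their values were seen. The 2 higher ones belonged to Qsox1 (0.66) and Txnl1 (0.55, at signals of 16.2 ± 3.49 in silica and 6.13 ± 4.14 in control, SD, n = 3 each). The 3 lower ones belonged to Arrdc3 (-0.69, beside -0.17 in its brightest probe set), Msrb3 (-0.65, beside -0.21) and Glrx2 (-0.45, beside 0.0041).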
